A study of Mus musculus with 7 samples.

Results

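The genes described here are 8 CXC chemokine ligands of mouse retinal microglia (rMG): Cxcl1, Cxcl2, Cxcl9, Cxcl10, Cxcl12, Cxcl13, Cxcl14 and Cxcl16. They were taken by gene symbol from the 40743 genes of the deposited RNA-seq table, and 5 of the 8 were high enough to be tested. The table holds 7 libraries labelled Irf8 KO, 3 from unlasered mice and 4 from mice that had received 3 to 6 laser spots per eye, the model of laser-induced choroidal neovascularisation (CNV), and were analysed 7 days later. All mice of both groups had the genotype Irf8-/- Cx3cr1GFP/+ on a C57BL/6J background. The Irf8 deletion is therefore shared by the controls, and the mice lack 1 functional copy of Cx3cr1 in which GFP was inserted. Live cells were sorted as CD45 low, CD11b+, Cx3cr1-GFP+, Ly6C- and Ly6G-, and each library came from about 10000 rMG pooled from 3 to 4 mice, so that the spread between libraries is that between pools. For lasered mice the central 70% of the retina was used. The part of the retina and the laser cannot be told apart. The study's text describes the Irf8 KO mice used for RNA-seq as adult, with no age in weeks for these libraries, and wild-type libraries were not analysed here.

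Chemokines are small secreted proteins that direct the movement of leukocytes through G protein-coupled receptors, and CXC chemokines carry a residue between the first pair of cysteines. Cxcl1 and Cxcl2 attract neutrophils through Cxcr2, and Cxcl9 and Cxcl10 attract activated T and NK cells through Cxcr3 and are classical interferon-induced genes. Cxcl12 signals through Cxcr4 and is also bound by Ackr3, Cxcl13 attracts B cells and follicular helper T cells through Cxcr5, and Cxcl16 is a membrane-anchored ligand of Cxcr6 that also acts as a scavenger receptor. Cxcl14 is a ligand of epithelia and other tissues whose receptor is less settled. In the injured retina, microglia and infiltrating myeloid cells are known sources of several of these ligands.

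The members lie at different places in the genome, and their upstream sequences differ in the elements that inflammatory transcription factors are known to bind. The stretches of 4 members are shown here because they hold letters of such elements. Cxcl1, Cxcl2, Cxcl9, Cxcl10 and Cxcl13 all map to chromosome 5, Cxcl12 to chromosome 6, Cxcl14 to chromosome 13 and Cxcl16 to chromosome 11. RefSeq promoter entries on GRCm38.p6 were matched for 7 of the members, all but Cxcl16, and the 250 bases before the annotated start were searched on both strands for GAAANNGAAA, the core of the interferon-stimulated response element (ISRE), TTCNNNGAA, the interferon-gamma-activated site (GAS), and GGGNNNTTCC, a form of the kB site. Each line gives 220 of the 250 bases, 5′ to 3′ on the strand of the gene and ending 30 bases before its start, with matches in capitals.
Cxcl10, 1 ISRE match and 2 kB matches, chr5:92348920-92349139, minus strand: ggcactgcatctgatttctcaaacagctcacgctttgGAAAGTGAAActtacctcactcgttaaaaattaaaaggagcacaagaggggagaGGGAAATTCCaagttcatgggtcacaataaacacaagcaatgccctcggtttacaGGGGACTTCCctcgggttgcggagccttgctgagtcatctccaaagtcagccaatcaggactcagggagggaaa
Cxcl1, 3 kB matches, of which 2 overlap, chr5:90890995-90891214, plus strand: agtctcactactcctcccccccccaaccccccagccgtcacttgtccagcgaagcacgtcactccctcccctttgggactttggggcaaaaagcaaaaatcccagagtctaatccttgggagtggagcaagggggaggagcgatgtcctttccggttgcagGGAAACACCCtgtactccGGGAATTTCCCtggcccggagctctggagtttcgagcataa
Cxcl2, 3 kB matches, of which 2 overlap, chr5:90903649-90903868, plus strand: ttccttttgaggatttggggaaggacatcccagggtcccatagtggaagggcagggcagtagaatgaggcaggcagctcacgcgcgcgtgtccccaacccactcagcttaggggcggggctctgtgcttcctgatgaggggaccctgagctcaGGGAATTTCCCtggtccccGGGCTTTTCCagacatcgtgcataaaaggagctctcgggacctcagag
Cxcl14, 1 GAS match and 1 ISRE match, chr13:56296582-56296801, minus strand: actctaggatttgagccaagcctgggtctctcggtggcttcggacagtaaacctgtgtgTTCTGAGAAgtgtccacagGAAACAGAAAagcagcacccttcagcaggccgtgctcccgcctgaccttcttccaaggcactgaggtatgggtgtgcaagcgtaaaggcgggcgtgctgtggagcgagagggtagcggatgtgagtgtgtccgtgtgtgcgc
The ISRE letters of Cxcl10 began 213 bases before the start and its kB letters 159 and 104 bases before it. In Cxcl1 the kB letters began 89, 71 and 70 bases before the start, and in Cxcl2 97, 96 and 78 bases before it, with the same run GGGAATTTCCC in both genes. The windows of Cxcl9, Cxcl12 and Cxcl13 held none of these letters. Of 32817 promoters searched in the same way, 2.97% held the ISRE letters, 7.01% the GAS letters and 4.65% the kB letters. A match describes the sequence and is not a measured binding site.

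Levels are given as CPM, for which the reads of each library are brought to a common total and are not divided by gene length. Total reads were 20427558 to 36022954 in unlasered and 37133297 to 45919042 in lasered libraries, and the smallest level that this depth can show, 3 reads, was between 0.0653 and 0.147 CPM. This floor covers counting error only. Microglial markers summed to 22618 to 26914 CPM in unlasered and 20343 to 27432 CPM in lasered libraries, so the sorted cell type was present in all of them. Reads of Irf8, listed jointly with the overlapping Gm20388, were at 489 to 530 CPM in unlasered and 463 to 582 CPM in lasered libraries. These joint reads cannot check the deletion, so the genotype is given as labelled. Transcripts of rod photoreceptors summed to 1819 to 17736 CPM in unlasered and 286 to 910 CPM in lasered libraries, and 10 of 11 of them were called lower. Over all genes tested, 3.07% were called lower and 3.86% higher. Monocyte markers summed to 87.0 to 354 CPM in unlasered and 259 to 910 CPM in lasered libraries. Without Fn1 they summed to 21.4 to 66.6 CPM and 11.3 to 182 CPM, so the lasered range enclosed the unlasered one. Fn1 was the only marker of this list that was called, on the higher side (log2 fold change 2.41, limma adjusted p = 0.0485). Dendritic cell markers summed to 24.3 to 70.6 CPM and 44.0 to 237 CPM. Of these 7 markers 1 was called higher, Ccl22 (log2 fold change 3.62, limma adjusted p = 0.0132). Ccl22 reached 1 CPM only in lasered libraries. Markers of T, NK and B cells summed to 2.63 to 8.27 CPM and 1.67 to 4.80 CPM, with Cd3e and Ifng at or under the floor in every library. Markers of endothelial cells were at 15.4 to 57.8 CPM and 12.98 to 28.4 CPM, and those of pericytes and fibroblasts at 1.72 to 3.18 CPM and 1.56 to 2.58 CPM. Those of the retinal pigment epithelium were at 41.0 to 58.4 CPM and 36.5 to 46.1 CPM. The list of Müller glia and astrocytes summed to 52374 to 77370 CPM and 29495 to 72691 CPM. Apoe alone gave 51588 to 76428 CPM and 29049 to 72350 CPM of it. This sum is thus almost that of Apoe and says little about the other markers of the list. Of those, Gfap was called higher (log2 fold change 1.59, limma adjusted p = 0.0311) and Dkk3 lower (-0.91, 0.0138).

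Cxcl14 and Cxcl16 made up most of the reads of the 8 members in both groups. Together they took 94.5% to 95.5% of the summed CPM of the 8 members in the unlasered libraries and 88.8% to 96.1% in the lasered libraries. Levels between genes were compared per kilobase, as the CPM divided by the length of the longest protein-coding transcript in GENCODE M21. In unlasered libraries the order was Cxcl14 with 84.2 ± 7.40 (SD, n = 3) CPM per kilobase, Cxcl16 with 44.5 ± 3.56, Cxcl2 with 5.63 ± 1.69, Cxcl10 with 1.74 ± 0.288, Cxcl1 with 0.985 ± 0.365, Cxcl13 with 0.128 ± 0.221, Cxcl9 with 0.110 ± 0.167 and Cxcl12 with 0.0208 ± 0.0124. Each of the members down to Cxcl1 stood clear of the next one in this order, whereas the ranges of Cxcl13, Cxcl9 and Cxcl12 overlapped their neighbours. In lasered libraries Cxcl14 with 72.6 ± 5.59 (SD, n = 4) CPM per kilobase and Cxcl16 with 65.5 ± 16.5 overlapped. They stood clear of Cxcl10 with 7.96 ± 6.14, which now came before Cxcl2 with 4.62 ± 2.22 and Cxcl13 with 3.74 ± 3.87. From Cxcl10 downwards, through Cxcl1 with 0.493 ± 0.355, Cxcl9 with 0.422 ± 0.485 and Cxcl12 with 0.0151 ± 0.0219, every pair of neighbours overlapped.

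**Figure D1:**
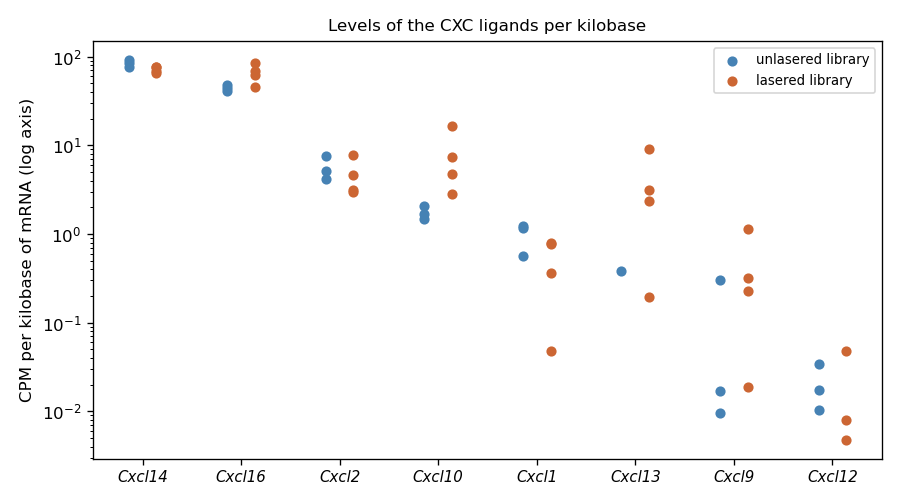
Level of each CXC ligand in CPM per kilobase of mRNA (log axis) in the 3 unlasered (blue) and 4 lasered (orange) libraries, each point being 1 library, with libraries at 0 reads left out (2 unlasered libraries for Cxcl13 and 1 lasered library for Cxcl12). Cxcl14 and Cxcl16 lie above all other members in every library, and Cxcl10 and Cxcl13 lie higher in most lasered libraries than in unlasered ones.

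The main comparison asked which CXC ligands differed between rMG of lasered and unlasered Irf8 KO mice. None of the 5 members tested passed an adjusted p of 0.05 with limma on log2(CPM + 1), and 3 of them, Cxcl10, Cxcl13 and Cxcl16, had an unadjusted p under 0.05. Over all 17496 genes tested, 6.93% passed the adjusted threshold and 22.7% had an unadjusted p under 0.05. Cxcl13 passed the filter only through the lasered group, in which it is high. The other 4 had a median log2 fold change of 0.16, compared with -0.014 over all genes tested, and 2 of the 4 had an unadjusted p under 0.05. With the reads recovered from the table, edgeR called 0 and DESeq2 called 1 of the 5, Cxcl10, against 7.33% and 13.3% of the genes these tools tested. Values of 1 member, Cxcl10, did not overlap between the groups, as was the case for 21.0% of all genes tested. These libraries hold bulk RNA, so that fewer cells of a type and less RNA per cell cannot be told apart.

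**Figure D2:**
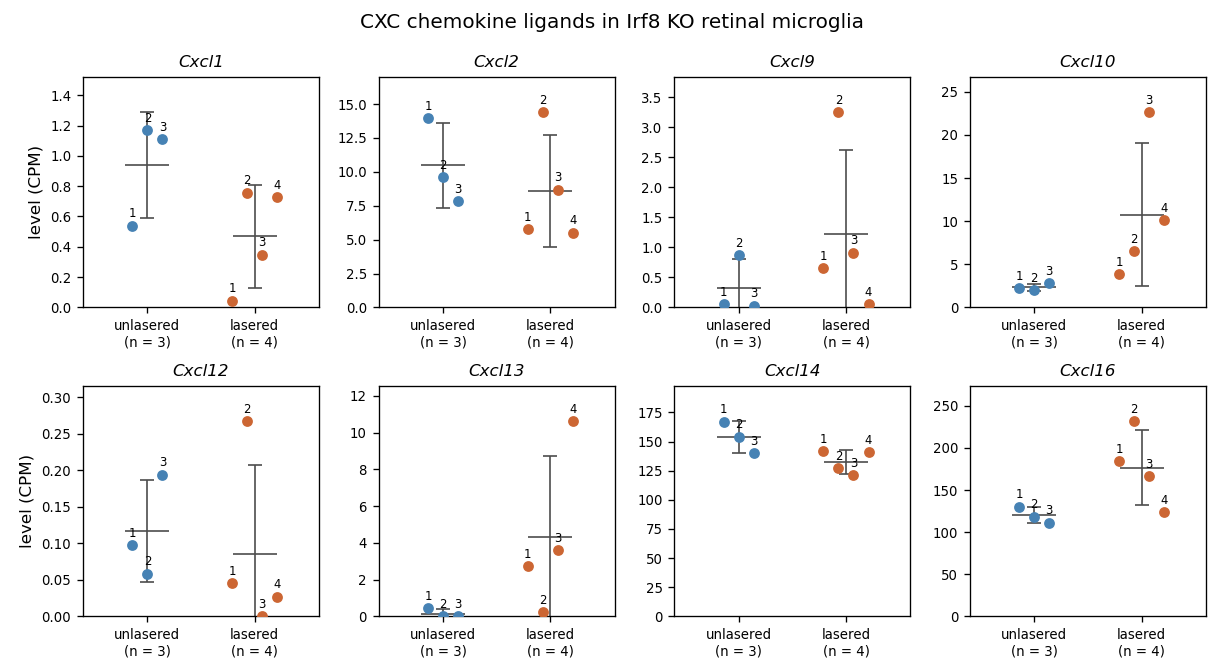
Level in CPM of each of the 8 CXC ligands in unlasered (blue, n = 3) and lasered (orange, n = 4) libraries, numbered as in the labels, with the mean (horizontal line) and SD (bars), each panel on its own axis from 0. The groups stand apart for Cxcl10 and overlap for the other 7 members.

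The neutrophil-attracting ligands Cxcl1 and Cxcl2 showed no detectable difference after laser. Cxcl2 (ENSMUSG00000058427, chr5:90903871-90905938) was at 14.0, 9.61 and 7.86 CPM in unlasered libraries 1 to 3 and at 5.78, 14.4, 8.69 and 5.52 CPM in lasered libraries 1 to 4. The highest and the lowest values of the lasered group enclosed all unlasered ones. Its log2 fold change was -0.31 (SE 0.32, 95% interval -1.04 to 0.42, limma adjusted p = 0.624). Cxcl1 (ENSMUSG00000029380, chr5:90891241-90893115) stayed near 1 CPM or below and did not pass the filter on low values. It had 11, 40 and 40 reads in unlasered and 2, 34, 16 and 27 reads in lasered libraries, which is 0.939 ± 0.348 (SD, n = 3) and 0.470 ± 0.339 CPM (n = 4). Lasered library 1 held the lowest value and the groups overlapped (exact permutation test, two-sided p = 0.171, where the smallest p that 3 against 4 libraries allow is 0.0571). The transcripts of Cxcl2 and Cxcl3 share a stretch of 116 bases at 95% identity or more, so reads of this pair may be split between them.

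Cxcl10 was higher in every lasered than in every unlasered library, with a wide spread among the lasered ones. Its level was 2.25, 2.02 and 2.78 CPM in unlasered libraries 1 to 3 and 3.87, 6.50, 22.6 and 10.1 CPM in lasered libraries 1 to 4. The unlasered libraries lay close together, and lasered library 3 stood highest, 5.84 times over lasered library 1. Means were 2.35 ± 0.389 (SD, n = 3) and 10.8 ± 8.30 CPM (n = 4), which is a ratio of 4.59. The log2 fold change was 1.57 (SE 0.46, 95% interval 0.54 to 2.60), and it did not pass the adjusted threshold with limma (adjusted p = 0.0759). Over 14 alternative settings it remained positive, between 1.15 and 2.22, and passed in 2 of them, with an adjusted p of 0.0469 without lasered library 1 and of 0.000587 with DESeq2. edgeR gave an adjusted p of 0.0505. The lowest of these values, 1.15, was that without lasered library 3. The summed monocyte markers were highest in lasered library 1, where Fn1 took most of the sum. Without Fn1 they summed to 134, 182, 32.8 and 11.3 CPM in lasered libraries 1 to 4 and to 21.4 to 66.6 CPM in unlasered libraries. The summed dendritic cell markers were 209, 237, 62.6 and 44.0 CPM in lasered libraries 1 to 4. By both of these sums lasered libraries 1 and 2, with the lower levels of Cxcl10, stood above lasered libraries 3 and 4. Their part in the result was not tested.

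The gene Cxcl10 (ENSMUSG00000034855, chr5:92346638-92348889, minus strand) overlaps exons of Art3, an ADP-ribosyltransferase family gene on the other strand, and the library kit did not mark strand. Reads of the shared part cannot be told apart. Art3 was at 7.59, 4.96 and 4.39 CPM in unlasered and at 10.4, 17.7, 24.7 and 13.9 CPM in lasered libraries, and was higher in all lasered ones (log2 fold change 1.38, SE 0.29, limma adjusted p = 0.0295). The stretch that the transcripts of both genes share was 133 bases long. In lasered library 3 both genes had their highest level.

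Cxcl9, the other interferon-induced member, varied widely among libraries and was at 1 or 2 reads in 3 of the 7. Cxcl9 (ENSMUSG00000029417, chr5:92321347-92328079) had 1, 30 and 1 reads in unlasered and 29, 146, 42 and 2 reads in lasered libraries. Lasered library 2 held most reads, with 3.25 CPM, and lasered library 4 was as low as unlasered libraries 1 and 3. It did not pass the filter, and means of 0.318 ± 0.484 (SD, n = 3) and 1.22 ± 1.40 CPM (n = 4) did not differ detectably (exact permutation test, two-sided p = 0.286). The library with most Cxcl9 was thus another one than that with most Cxcl10. Lasered library 2 was also highest for H2-Ab1, an MHC class II gene, with 1497 CPM, compared with 28.6 to 858 CPM in the other lasered and 9.49 to 79.4 CPM in the unlasered libraries. This coincidence was not tested.

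Among the homeostatic ligands, Cxcl14 was abundant and similar in all libraries, Cxcl12 was hardly detected, and Cxcl13 was detected mainly in lasered libraries. Cxcl14 (ENSMUSG00000021508, chr13:56288643-56296551) was at 167, 154 and 140 CPM in unlasered libraries and at 142, 127, 121 and 141 CPM in lasered libraries. The lasered values lay at the lower end and overlapped the unlasered ones. The log2 fold change was -0.21 (SE 0.12, 95% interval -0.49 to 0.06, limma adjusted p = 0.344), so that a decrease by more than 0.49 on this scale lay outside the interval. Cxcl14 took rank 1018 by mean CPM among all 40743 genes in unlasered and rank 1301 in lasered libraries. Cxcl12 (ENSMUSG00000061353, chr6:117168535-117181367), a ligand made by stromal cells in many tissues, had 2, 2 and 7 reads in unlasered and 2, 12, 0 and 1 reads in lasered libraries. Only 2 of the 7 libraries exceeded the floor of 3 reads, and at this depth no difference was detectable (exact permutation test, two-sided p = 0.686).

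Cxcl13 (ENSMUSG00000023078, chr5:95956951-95961068) had 9, 0 and 0 reads in unlasered libraries 1 to 3 and 121, 10, 166 and 394 reads in lasered libraries 1 to 4. This corresponds to 0.441, 0 and 0 CPM and to 2.74, 0.223, 3.62 and 10.6 CPM. Lasered library 4 was highest, whereas lasered library 2 lay below unlasered library 1, so that the groups overlapped. The log2 fold change on the log2(CPM + 1) scale was 1.81 (SE 0.62, 95% interval 0.42 to 3.20), and it did not pass the threshold with limma (adjusted p = 0.118). The size depended on how low values were treated, with 3.81 for a pseudocount of 0.1 and 5.20 with edgeR, and neither passed (adjusted p = 0.0803 and 0.0813). Cxcl13 reached 1 CPM only in lasered libraries 1, 3 and 4 and could not be fitted without any 1 of them. Without lasered library 2, the lowest of the group, the log2 fold change was 2.37 and passed (limma adjusted p = 0.0422). As this was the only lasered library that could be left out, the pass is no independent support. An exact permutation test of the means gave a two-sided p of 0.114.

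Cxcl16 had the highest mean CPM of the members after laser, whereas per kilobase Cxcl14 came first and the pair overlapped. Levels of Cxcl16 were higher in 3 of the 4 lasered libraries than in any unlasered library. Cxcl16 (ENSMUSG00000018920, chr11:70453983-70459984, minus strand) was at 130, 118 and 111 CPM in unlasered and at 184, 232, 167 and 124 CPM in lasered libraries. Lasered library 2 was highest and lasered library 4 fell within the unlasered range. Means were 120 ± 9.60 (SD, n = 3) and 177 ± 44.6 CPM (n = 4). The log2 fold change was 0.52 (SE 0.20, 95% interval 0.08 to 0.96, limma adjusted p = 0.150). It was between 0.38 and 0.68 over 14 alternative settings and passed in none of them, with the lowest adjusted p of 0.0524 given by DESeq2 and 0.0535 without lasered library 4. Exons of Cxcl16 overlap those of Zmynd15 on the other strand over 552 bases of transcript. Zmynd15 was at 3.74 to 9.13 CPM in unlasered and 4.66 to 16.9 CPM in lasered libraries, well below Cxcl16 in all of them. Dendritic cell markers summed to 209, 237, 62.6 and 44.0 CPM in lasered libraries 1 to 4. The monocyte markers without Fn1 summed to 134, 182, 32.8 and 11.3 CPM. Both sums thus ordered the lasered libraries as Cxcl16 did. In unlasered libraries both sums were highest in library 3, where Cxcl16 was lowest. Their part in the levels of Cxcl16 was not tested.

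Relative to Cxcl14 of the same library, Cxcl16 stood higher in the lasered group. The ratio of Cxcl16 to Cxcl14 in CPM was 0.779, 0.768 and 0.794 in unlasered and 1.30, 1.82, 1.38 and 0.879 in lasered libraries. All lasered ratios exceeded the unlasered ones. This ratio was formed after the values of both genes were seen and was not tested. A ratio within a library shows that the pair of genes changed unequally and not which of them changed.

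**Figure D3:**
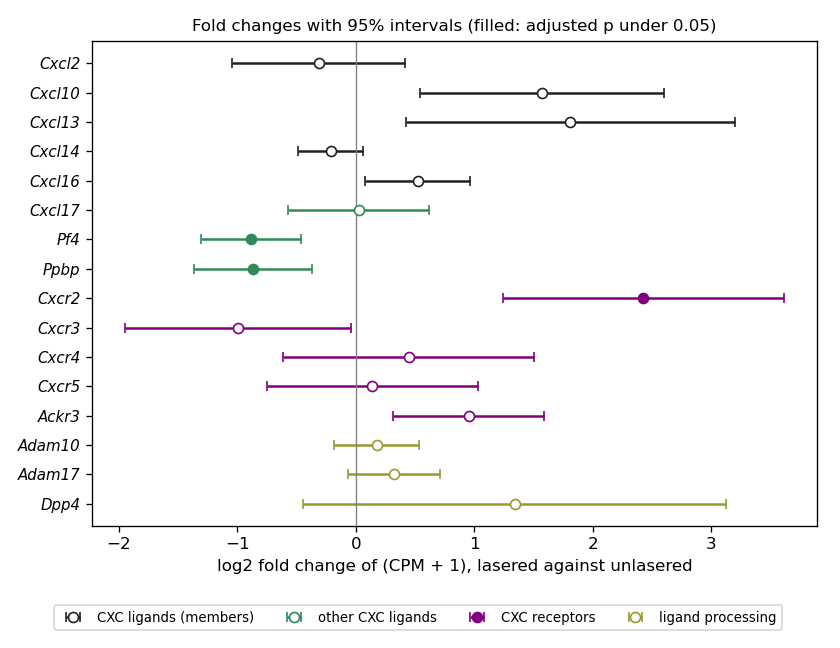
Log2 fold change of (CPM + 1) in lasered against unlasered libraries (points) with 95% intervals (bars) for the tested CXC ligands, other CXC ligands, receptors and processing proteases, where filled points passed an adjusted p of 0.05 with limma. No member is filled, whereas Pf4 and Ppbp on the lower side and Cxcr2 on the higher side are.

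The members that passed the filter varied in different ways across the 7 libraries, as seen from the genes most similar to each of them by Pearson r of log2(CPM + 1) among 10288 genes with a mean of at least 10 CPM. Cxcl10 was most similar to Mettl9 (r = 0.986), Nudt4 (0.976) and Rnf138 (0.963), Cxcl13 to Tmem241 (0.993) and Snn (0.951), and Cxcl16 to Ap3s1 (0.985), Rnf114 (0.985) and Plscr1 (0.980). For Cxcl14 these were Cdc5l (0.995), Atl1 (0.979) and Pdp2 (0.967), and for Cxcl2 Bloc1s2 (0.969), 1810022K09Rik (0.964) and Pabpn1 (0.949). With only 7 libraries and 10288 genes, high values of r arise readily, and they are given as a description without a test.

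Among the 7 other CXC ligands in the table, both genes of the platelet chemokine cluster that were tested fell after laser. Pf4 (Cxcl4), a chemokine of platelets that is also made by tissue macrophages, was at 636, 550 and 407 CPM in unlasered and at 258, 240, 282 and 359 CPM in lasered libraries. All lasered values were below all unlasered ones, and the log2 fold change was -0.89 (SE 0.19, limma adjusted p = 0.0285). Per kilobase Pf4 exceeded every member, with 903 ± 196 (SD, n = 3) in unlasered and 484 ± 89.5 (n = 4) CPM per kilobase in lasered libraries. Ppbp (Cxcl7), its neighbour on chromosome 5 and also a platelet chemokine, was at 7.98, 6.07 and 6.58 CPM in unlasered and at 2.54, 3.41, 4.70 and 2.80 CPM in lasered libraries. The groups did not overlap and the log2 fold change was -0.87 (SE 0.22, limma adjusted p = 0.0485). Lower values were called for 3.07% of all genes tested, and for 10.7% all lasered values lay below all unlasered ones.

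Neither call was stable. Pf4 passed in 7 of 14 alternative settings and missed the threshold, among others, without unlasered library 1 (adjusted p = 0.0784) or 2 (0.0726) and without lasered library 1 (0.0767), 2 (0.0808) or 3 (0.0714). Ppbp passed only with DESeq2 (adjusted p = 0.0166) and lost its call without any of the 7 libraries in turn (0.0525 to 0.134). Pf4 is also on the list of border macrophage markers, which summed to 1204 to 1307 CPM in unlasered and 653 to 978 CPM in lasered libraries. Without Pf4 the list summed to 639 to 899 CPM in unlasered and 413 to 618 CPM in lasered libraries. None of its 5 other tested markers was called. Mrc1, a mannose receptor that carries most of this sum, had a log2 fold change of -0.59 (adjusted p = 0.131) and Cd163 one of -0.02 (0.969), whereas Cbr2 was at 1.06 (0.0799), Folr2 at 0.34 (0.512) and F13a1 at 0.13 (0.893). Their part in the fall of Pf4 was not tested. Cxcl17 passed the filter with a log2 fold change of 0.02 (SE 0.26, limma adjusted p = 0.971). Cxcl3, Cxcl5, Cxcl11 and Cxcl15 did not pass it, and Cxcl11, annotated in GENCODE M21 as a polymorphic pseudogene, was at 0.0668 to 0.350 CPM.

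**Figure D4:**
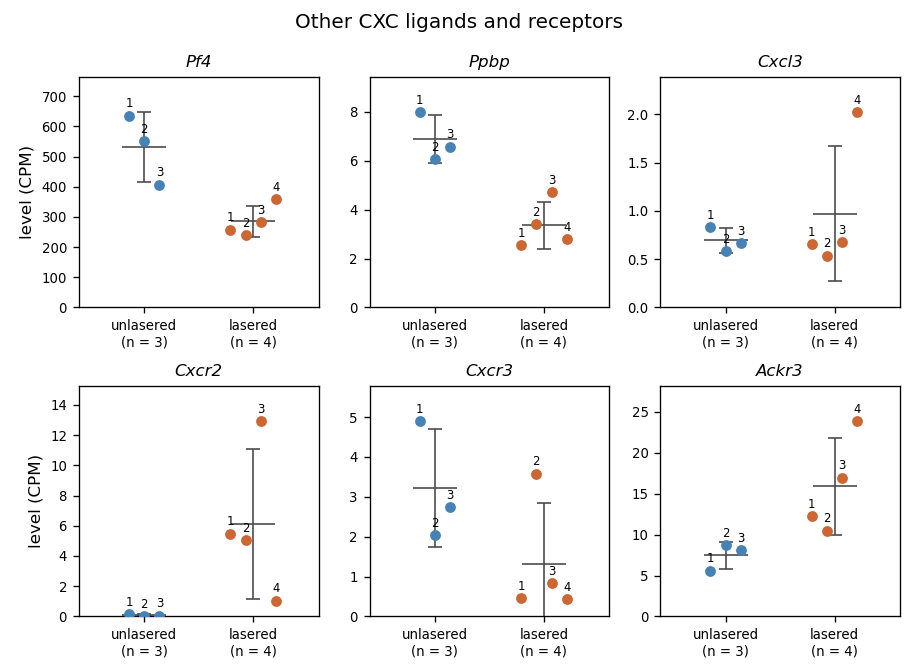
Level in CPM of Pf4, Ppbp, Cxcl3, Cxcr2, Cxcr3 and Ackr3 in unlasered (blue, n = 3) and lasered (orange, n = 4) libraries with the mean (horizontal line) and SD (bars), each panel on its own axis from 0. The groups stand apart for Pf4, Ppbp, Cxcr2 and Ackr3, and a single lasered library stands apart from the other lasered ones for Cxcl3 (library 4) and Cxcr3 (library 2).

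Of the CXC receptors, 7 were analysed here and 5 were tested, and 1 of these, Cxcr2, was called higher after laser in the main setting. Higher values were called for 3.86% of all genes tested. Cxcr2, the receptor of Cxcl1 and Cxcl2 that is known best from neutrophils, had 3, 1 and 2 reads in unlasered and 242, 226, 593 and 39 reads in lasered libraries, or 5.48, 5.03, 12.9 and 1.05 CPM in the latter. No unlasered library exceeded the floor of 3 reads. All lasered libraries did, and lasered library 4 was the lowest of them. The log2 fold change was 2.43 on the log2(CPM + 1) scale (SE 0.53, limma adjusted p = 0.0305), 4.74 with a pseudocount of 0.1 and 6.42 with edgeR. The call was lost without any of the unlasered libraries (adjusted p = 0.0657, 0.0715 and 0.0598 for 1 to 3) and without lasered library 1 (0.0763), 2 (0.0816) or 3 (0.0542). Cxcr2 passed the filter only through the lasered group, so its call cannot be set against the share over all genes. Cxcr2 belongs to a list of 7 neutrophil markers, which summed to 0.292 to 11.0 CPM in unlasered and 1.32 to 13.6 CPM in lasered libraries. Without Cxcr2 this sum was 0.263 to 10.8 CPM in unlasered and 0.269 to 8.15 CPM in lasered libraries. The neutrophil genes Ly6g, Mpo and Retnlg did not exceed 3 reads in any library. S100a8 reached 7.20 CPM in unlasered library 1 and 6.86 CPM in lasered library 2, S100a9 reached 3.48 CPM in unlasered library 1, and Elane 0.327 CPM in lasered library 3, where Cxcr2 was highest. Their part in the rise of Cxcr2 was not tested.

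The receptors of the other members showed no call with limma. Ackr3, an atypical receptor that binds and removes Cxcl12, was at 5.58, 8.70 and 8.13 CPM in unlasered and at 12.3, 10.5, 17.0 and 23.9 CPM in lasered libraries. The groups did not overlap, as for 21.0% of all genes tested. The log2 fold change of 0.95 (SE 0.28) missed the threshold (limma adjusted p = 0.0813, DESeq2 0.0129). Cxcr4, the signalling receptor of Cxcl12, was at 2.10 to 5.33 CPM in unlasered and 2.07 to 10.6 CPM in lasered libraries (log2 fold change 0.44, SE 0.47, adjusted p = 0.634). Cxcr3, Cxcr5 and Cxcr6 are named here as the receptors of members. Cxcr3, which binds Cxcl9 and Cxcl10, was at 4.90, 2.04 and 2.75 CPM in unlasered and at 0.453, 3.59, 0.828 and 0.431 CPM in lasered libraries. Apart from lasered library 2, the lasered values lay below the unlasered ones (log2 fold change -0.99, SE 0.42, adjusted p = 0.203). Cxcr5 had a log2 fold change of 0.14 (SE 0.39, adjusted p = 0.873), and Cxcr6 had at most 42 reads in a library and was not tested.

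The proteases that act on these ligands were expressed in both groups. Adam10 and Adam17, which release Cxcl16 from the cell surface, were at 301 to 460 CPM and 154 to 225 CPM in unlasered and at 360 to 435 CPM and 186 to 265 CPM in lasered libraries. Their log2 fold changes of 0.18 (SE 0.16, adjusted p = 0.566) and 0.32 (SE 0.17, adjusted p = 0.309) did not pass. Dpp4, which truncates Cxcl10 and Cxcl12 at their N-terminus, was at 8.72 and 11.8 CPM in lasered libraries 1 and 2 and at 0.806 and 0.135 CPM in lasered libraries 3 and 4, compared with 0.263 to 1.13 CPM in unlasered libraries. None of the 3 genes was called.

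No gene of the pathways known to induce CXC ligands was called by limma. Of 12 interferon signalling genes all were tested and 0 were called by limma, with a median log2 fold change of 0.14. An unadjusted p under 0.05 was found for 2 and DESeq2 called 1. Over all genes tested these shares were 22.7% with limma and 13.3% with DESeq2. The most abundant were Ifngr1, the ligand-binding chain of the interferon-gamma receptor, with a log2 fold change of -0.09 (SE 0.13, adjusted p = 0.752), and Ifnar2, a chain of the type I interferon receptor, with -0.12 (SE 0.11, adjusted p = 0.578). Irf1, a transcription factor that binds ISRE sites and that is named after its values were seen, was at 151 to 172 CPM in unlasered and 118 to 132 CPM in lasered libraries (log2 fold change -0.41, SE 0.11, adjusted p = 0.0661).

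Of 14 NF-kB signalling genes, 13 were analysed here and tested and 0 were called by limma, with a median log2 fold change of -0.06. Unadjusted p-values under 0.05 were found for 3 of them, and DESeq2 called 2, which is near the shares of 22.7% and 13.3% over all genes tested. Tlr2, a receptor for bacterial lipopeptides, had a log2 fold change of 0.34 (SE 0.13, adjusted p = 0.151), and Tnfrsf1a, the main receptor of tumour necrosis factor, one of -0.26 (SE 0.10, adjusted p = 0.175). For both genes the groups did not overlap. This was so for 4 of the 13 genes, 2 higher and 2 lower after laser, and for 21.0% of all genes tested.

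**Figure D5:**
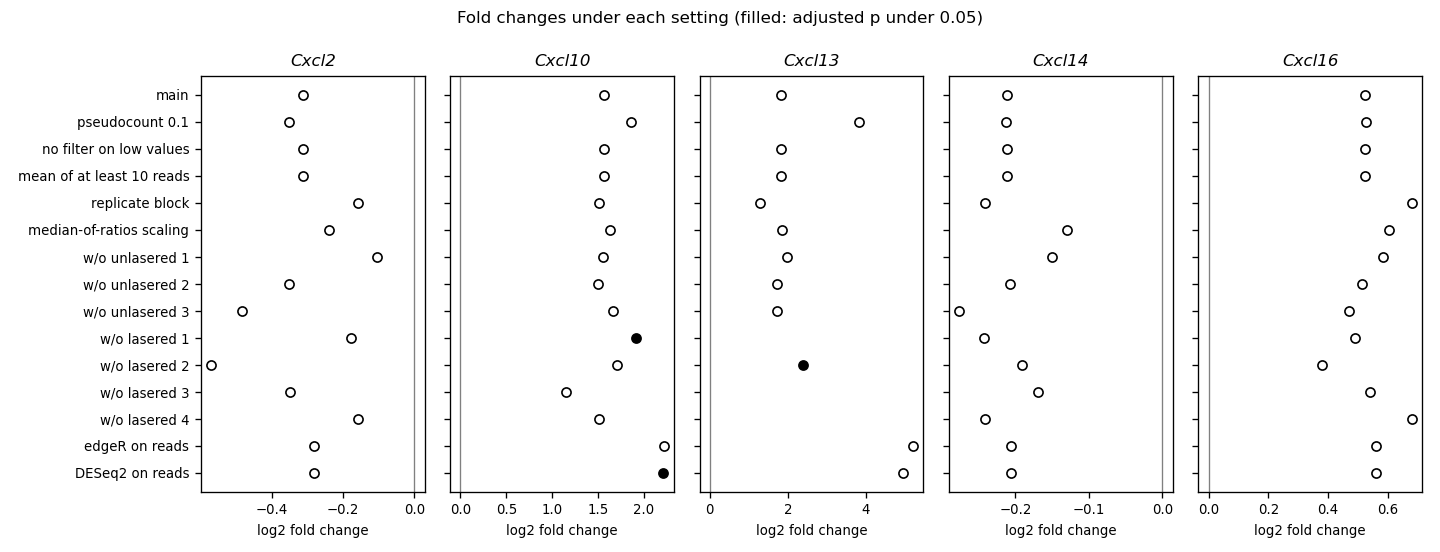
Log2 fold change of the 5 tested CXC ligands (x axis, each panel on its own scale, the vertical line being 0) under the main setting and 14 alternatives (rows), with filled points for an adjusted p under 0.05. Points are filled for Cxcl10 without lasered library 1 and with DESeq2 and for Cxcl13 without lasered library 2, and Cxcl13 has no point where it did not pass the filter.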

How the data were processed

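RNA of sorted rMG was converted to cDNA with the SMARTer Ultra Low kit and made into libraries with Nextera XT. Per the study's methods, the authors trimmed adapters with cutadapt, removed duplicates with FastUniq, aligned with bowtie2 and obtained counts from HTSeq with Ensembl annotation 90. The submitters' processing notes name GRCm38. The strand setting of the counting was not given in the sources used here. The deposited values are headed TPM but are CPM, since in each library 100% of them were whole multiples (within 0.0001 CPM) of 1 step shared by long and short genes. Of the listed genes, 4492 include reads listed jointly with another gene, none of them a member.

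Differences between the groups were tested on log2(CPM + 1) with limma 3.58.1, using R 4.3.3 and statmod 1.5.0. Variances were moderated by robust empirical Bayes with a trend on the mean, and the 17496 genes tested reached 1 CPM in 3 or more libraries. Tests were two-sided with Benjamini-Hochberg adjustment over all genes tested. Untested members were compared with exact permutation tests. As alternatives, edgeR 4.0.16 (quasi-likelihood) and DESeq2 1.42.0 were run on the recovered reads. Tables and plots were made in Python 3.11.15 with scipy 1.17.1, numpy 2.4.6, pandas 2.3.3 and matplotlib 3.10.9. Coordinates are those of GENCODE M21 (GRCm38), and promoters those of RefSeq (GRCm38.p6).

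Members and gene lists were chosen with earlier results of these data known. Named are all 8 members, genes of the other lists that passed, the 2 of each list with the highest mean, and the 3 genes most similar to each tested member. Some genes that this rule or the lists cover are not reported here. Further alternatives were a pseudocount of 0.1, no filter, a mean of at least 10 reads, median-of-ratios scaling, a replicate block and the omission of single libraries. The labels do not say whether libraries of a group came from separate litters, so p-values measure the spread between these pools.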

Additional observations from a re-analysis of the deposited data

Results flagged for a closer look

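In 4 of 24 groups of lasered libraries examined (the CXC ligands, their receptors and the processing proteases with reads), 1 library stood apart from the other lasered ones by Dixon's criterion. The usual rate of about 1 of 20 groups for this criterion assumes normally distributed values. CPM values near the floor are not so distributed, so the number of flagged groups cannot be set against that rate. Cxcr3, the receptor of Cxcl9 and Cxcl10, was at 3.59 CPM in lasered library 2 and at 0.431 to 0.828 CPM in the other lasered libraries. Cxcl3, a neutrophil-attracting ligand, was at 2.02 CPM in lasered library 4 and at 0.534 to 0.675 CPM in the others. Cxcl12 was at 0.267 CPM in lasered library 2, which is 12 reads, and at 0 to 0.0453 CPM in the others. Cxcl15 was at 0.0223 CPM in lasered library 2, which is 1 read, and at 0 in the others. This value lies under the floor of 3 reads, and a group with reads in 1 library only always meets the criterion.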

How the results depend on the processing

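The 4 tested members other than Cxcl13 kept their direction in every alternative. Cxcl13 passed the filter only through the lasered group, so its direction under that filter is not a check. The number of genes called higher, 676, was 212 without a filter, 2 with the replicate block, 1177 with DESeq2 and 150 to 815 when single libraries were left out. The number called lower, 537, was 173, 1, 1141 and 114 to 433 under the same alternatives. The lowest counts of the last kind, 150 and 114, were those without lasered library 2, and counts lower than the main ones by over 1.5 times were also found for higher genes without unlasered library 1 (367) or 2 (362) and lasered library 1 (197) or 3 (278), and for lower genes without unlasered library 2 (301) and lasered library 1 (220), 3 (158) or 4 (259). The labels do not say whether replicate numbers pair the libraries, and the block leaves lasered library 4 without a partner. Pairing was examined on the deviations of each library from the mean of its group. These deviations had correlations of -0.18, -0.13 and -0.02 between same-numbered libraries. By them, no lasered library correlated best with the unlasered library of its own number. Deviations from a group mean cancel out within the group, so with this few libraries the correlations cannot decide whether libraries were paired.

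Of the members, 0 were called in the main setting, 1 with DESeq2 and 0 to 1 when single libraries were left out. Of the other CXC ligands, 2 were called in the main setting, 1 with a pseudocount of 0.1, median-of-ratios scaling or edgeR, 0 without a filter or with the replicate block, and 0 to 1 without single libraries. Of the receptors, 1 was called in the main setting, 0 without a filter or with the block, 2 with DESeq2 and 0 to 1 without single libraries. DESeq2 called 1 interferon and 2 NF-kB signalling genes, and leaving out single libraries gave 0 to 2 (2 without unlasered library 3, 1 without lasered library 4) and 0 to 1 (1 without unlasered library 1). The protease list had 0 calls in all alternatives. The causes were not tested. Cxcl13 could not be fitted without lasered library 1, 3 or 4, where it failed the filter. Cxcl1, Cxcl9 and Cxcl12 are limited by depth, with at most 40, 146 and 12 reads in a library.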
